A study of Mus musculus with 96 samples.

Results

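Transcripts of 8 genes of the podocyte, the epithelial cell that wraps the glomerular capillaries, were measured in 14 dissected mouse tubule segments and in glomeruli. The members were taken by gene symbol, 8 of the 54532 genes of the expression table, and each symbol matched 1 row: Nphs1, Magi2, Cd2ap, Podxl, Ptpro, Synpo, Actn4 and Wt1. All groups were of male C57BL/6 mice aged 6 to 8 weeks on normal chow, and the labels name no mutation or treatment in any of them. The groups were the glomerulus (GL), the proximal tubule (PTS1, convoluted, and PTS2 and PTS3, straight), the thin descending limb of short loops (DTL1) and of long loops in the outer (DTL2) and inner medulla (DTL3), and the thin ascending limb (ATL). Downstream of these came the thick ascending limb, split into a medullary (MTAL) and a cortical part (CTAL), the distal convoluted (DCT) and connecting tubules (CNT), and the collecting duct at its cortical (CCD), outer medullary (OMCD) and inner medullary levels (IMCD). The 93 tissue pieces (87 of tubule, 6 of glomerulus) came from 53 mice. Most groups had 3 mice, whereas ATL and OMCD had 4, and CCD, CTAL and PTS2 had 5. Values are TPM, a relative transcript abundance that sets each gene's reads against transcript length and sample total. Levels are given in TPM as the mean ± SD over mice, and differences as log2(TPM + 1). The read depth behind a TPM is unknown.

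Podocytes extend interdigitating foot processes whose gaps are bridged by the slit diaphragm, a cell junction that forms the last layer of the filtration barrier. Nephrin, the product of Nphs1, spans that junction. The adaptors MAGI2 and CD2AP sit beneath it and tie it to actin bundles that synaptopodin (Synpo) and alpha-actinin-4 (Actn4) organise. Podocalyxin (Podxl) and the receptor phosphatase PTPRO cover the apical surface, and WT1 is the zinc-finger transcription factor that maintains the podocyte programme. Several of these proteins are used elsewhere in the body: podocalyxin on endothelium, CD2AP and alpha-actinin-4 in many epithelia.

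The glomerular pieces also carried transcripts of endothelial, mesangial and renin cells. The 10 endothelial genes examined summed to between 5521 and 6015 TPM, the 9 mesangial and muscle genes to between 2471 and 3233 TPM, and the renin genes to between 1025 and 1845 TPM. The 3 parietal epithelium genes summed to only 25.9 to 29.5 TPM there, below every tubule mouse (57.5 TPM or more). Proximal tubule transcripts (Slc34a1, Lrp2, Slc5a2 and Slc5a12) summed to between 25 and 49.1 TPM in the glomeruli, against 12011 to 13203 TPM in PTS1. In bulk pieces, fewer cells of a type and less RNA per cell cannot be told apart. The number of odorant and vomeronasal receptor genes with low TPM values, counted here as a measure of low-level background, differed between groups. Of 1457 such genes, a median of 692 reached 1 TPM in DTL1, 523 in GL, 407 in DTL3, 276 in DTL2 and 270 in ATL, where the mice ranged from 15 to 588. The median was 79 in OMCD, 27 in PTS1 and at most 4 in the other groups. Very low member values in the thin limbs stand beside these counts, and the part of that background in them was not tested.

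All members except Cd2ap, 7 of 8, were higher in the glomerulus than in every tubule segment, by margins between 1.47 and 7.86 on the log2 scale. The intersection-union test used here takes the weakest of the 14 contrasts with limma, with an adjusted p under 0.05 and a margin of at least 1. It called 3.22% of the 33793 genes tested. All 8 members were higher in the glomerulus than in the equal-weight mean of the 14 segments, where 31.6% of all genes were called higher and 3.94% lower. The count was 7 without Cd2ap under a pseudocount of 5, under median ratio rescaling (17.6% of all genes higher, 6.6% lower) and under quantile normalization (8.49% and 9.06%). The members' median difference in that contrast was 7.21, beside a median of 0.69 over all genes tested. All 8 differed among the 15 groups and among the 14 tubule segments, but those tests called 93.9% and 91% of all genes, so those counts say nothing particular of the members.

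**Figure D1:**
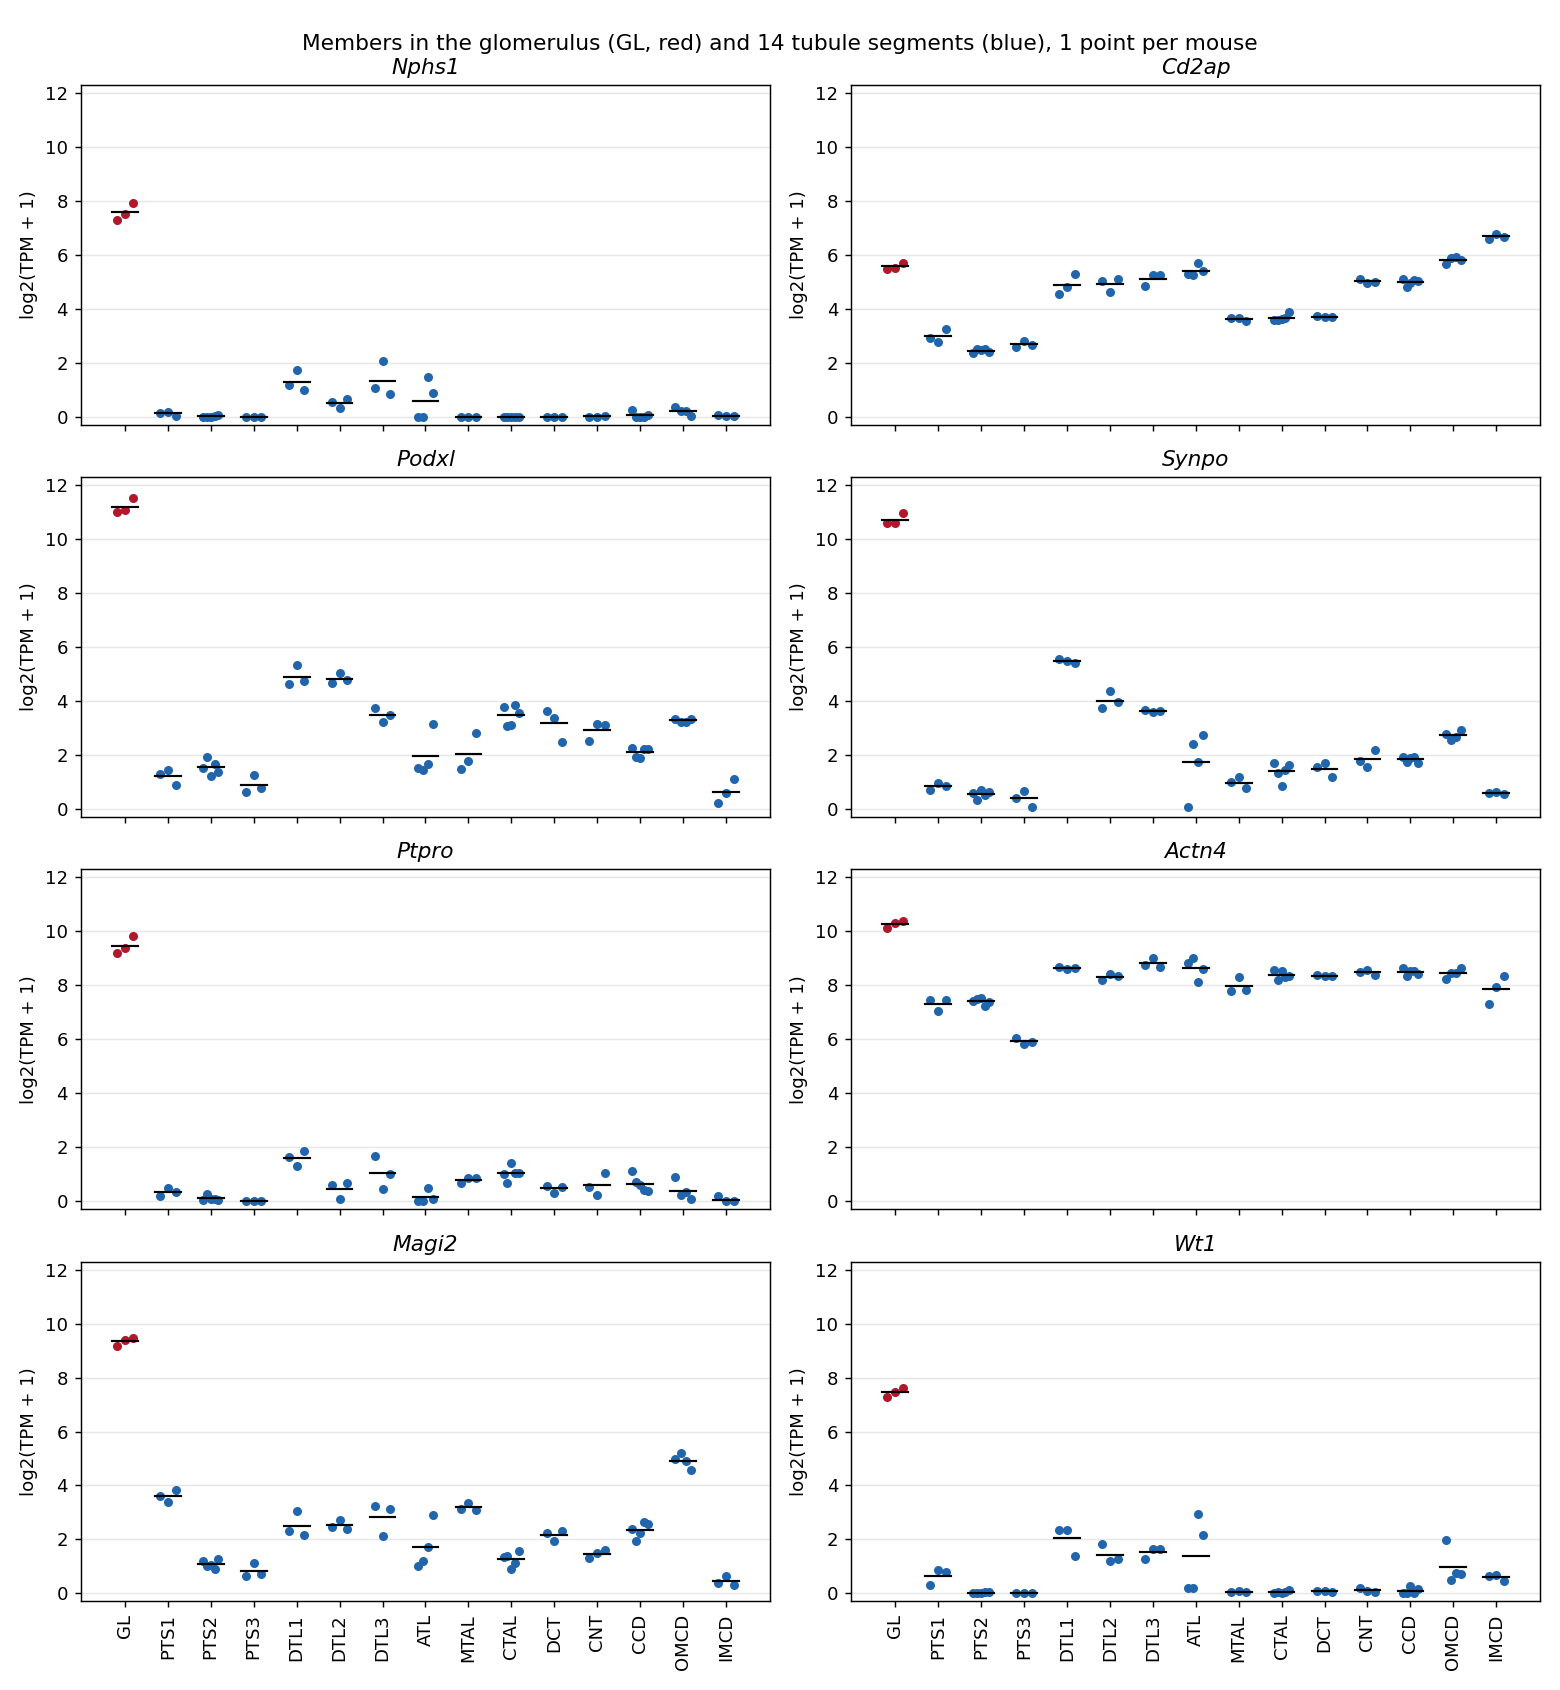
Level of each member in every mouse as log2(TPM + 1), in the glomerulus (GL, red) and the 14 tubule segments (blue); points are mice and bars are group means. Nphs1, Ptpro and Wt1 lie near 0 in most of the tubule, Actn4 is high throughout, and Cd2ap is the member that peaks outside the glomerulus, in IMCD.

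**Figure D2:**
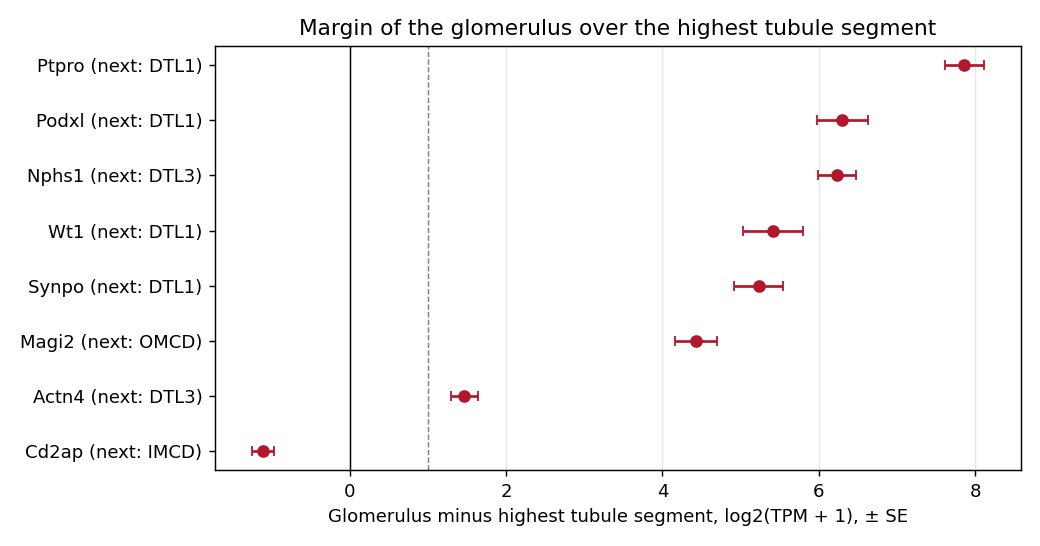
Glomerular level minus that of the highest tubule segment (named beside each gene) on log2(TPM + 1), with the standard error from the limma fit; the solid line is 0 and the dashed line is 1. Margins run from 7.86 for Ptpro to -1.11 for Cd2ap.

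The start regions of 4 members are shown because these genes bracket the patterns described here: Nphs1 and Ptpro, almost silent in the tubule, and Actn4 and Cd2ap, transcribed in every segment. Sequences are from RefSeq on GRCm38.p6, 250 bases before to 50 after the gene's start, written 5′ to 3′ on the gene's strand. They lie at chr7:30459808-30460107 (plus strand) for Nphs1, chr6:137252049-137252348 (plus strand) for Ptpro, chr7:28962283-28962582 (minus strand) for Actn4 and chr17:42876375-42876674 (minus strand) for Cd2ap. The letters searched on both strands were GTGGGAG, a core that WT1 and the EGR zinc-finger factors share, the box of letters GGGCGG (the GC box), the element TATAAA (the TATA box) and the homeodomain core TAATTA. Capitals mark matches, which read as CTCCCAC or CCGCCC where they lie on the opposite strand, and no matches shared a base.
Nphs1: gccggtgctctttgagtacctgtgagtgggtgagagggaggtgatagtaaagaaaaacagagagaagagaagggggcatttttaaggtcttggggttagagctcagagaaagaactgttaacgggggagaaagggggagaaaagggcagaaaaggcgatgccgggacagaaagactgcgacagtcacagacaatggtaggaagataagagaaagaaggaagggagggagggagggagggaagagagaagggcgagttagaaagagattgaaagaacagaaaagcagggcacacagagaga
Ptpro: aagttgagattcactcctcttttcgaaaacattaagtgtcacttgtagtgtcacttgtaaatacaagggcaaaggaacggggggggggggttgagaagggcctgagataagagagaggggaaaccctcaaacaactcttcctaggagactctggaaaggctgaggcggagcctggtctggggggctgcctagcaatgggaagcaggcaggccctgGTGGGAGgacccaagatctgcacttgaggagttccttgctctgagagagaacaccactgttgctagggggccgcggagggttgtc
Actn4: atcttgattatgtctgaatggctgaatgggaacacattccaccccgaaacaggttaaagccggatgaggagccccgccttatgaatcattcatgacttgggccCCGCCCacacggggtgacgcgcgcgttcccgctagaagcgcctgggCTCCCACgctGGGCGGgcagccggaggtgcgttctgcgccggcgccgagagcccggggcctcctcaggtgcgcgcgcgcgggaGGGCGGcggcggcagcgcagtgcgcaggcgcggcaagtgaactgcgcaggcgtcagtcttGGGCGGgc
Cd2ap: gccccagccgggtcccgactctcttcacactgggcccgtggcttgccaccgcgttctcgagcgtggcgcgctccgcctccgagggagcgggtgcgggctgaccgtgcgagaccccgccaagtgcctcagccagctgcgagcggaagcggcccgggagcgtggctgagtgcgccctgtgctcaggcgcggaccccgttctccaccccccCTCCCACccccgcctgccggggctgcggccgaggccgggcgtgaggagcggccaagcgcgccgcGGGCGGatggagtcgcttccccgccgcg
The Actn4 region held 4 GC boxes and 1 GTGGGAG, the Cd2ap region 1 of each, the Ptpro region 1 GTGGGAG and no GC box, and the Nphs1 region none of the motifs. Of all 32851 promoters of the same length, 9.73% held GTGGGAG, 35.7% the GC box, 13.6% TATAAA and 5.29% TAATTA. The G + C content was 68% with 35 CpG dinucleotides for Actn4 and 77% with 41 for Cd2ap. It was 49.7% with 6 CpG for Nphs1 and 54.7% with 5 for Ptpro, against a median of 52.7% and 7 over all promoters. Magi2 has an entry for each of 2 starts, of 69.3% G + C with 29 CpG and of 43% with 4 CpG. Podxl, Synpo and Wt1 have no sequence printed here. These letter matches are descriptions of sequence and show no binding.

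Nphs1 encodes nephrin, the defining adhesion protein of the slit diaphragm. It was measured at 155.6, 180.25 and 243.45 TPM in the 3 glomerular mice, a mean of 193.1 ± 45.3 TPM. Every tubule mouse was at or below 3.22 TPM, so the groups did not overlap. The highest segment, DTL3, was at 1.12, 3.22 and 0.82 TPM, and the glomerular margin over it was 6.23 (SE 0.25, adjusted p = 9.98e-25). DTL1 followed with 1.24, 2.36 and 0.98 TPM, and these neighbours could not be told apart (difference 0.04, SE 0.25, adjusted p = 0.921). Nphs1 was listed at 0 in every piece of PTS3, MTAL, CTAL and DCT. In ATL it was at 0 in mice 2 and 3 and at 1.76 and 0.83 TPM in mice 4 and 6. Mice 4 and 6 had 517 and 588 receptor genes at 1 TPM or more, and mice 2 and 3 had 23 and 15. Of the 91 pairs of segments, 31 differed for Nphs1. The test among tubule segments was no longer passed with quantile normalization (adjusted p = 0.203) or with the 3 descending limb groups left out (adjusted p = 0.113). The antisense gene Nphs1os, which shares 131 exonic bases with Nphs1, was at 3.7 ± 0.2 TPM in the glomerulus. The pseudogene Rps12-ps4, also on the opposite strand, shares 183 exonic bases with Nphs1 and was at 0.433 ± 0.451 TPM there. Since the strandedness of counting is not stated, the reads of these overlaps cannot be told apart.

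Magi2 encodes a scaffold with several PDZ domains that binds nephrin's tail. Its glomerular values were 584.85, 677.8 and 712.9 TPM (658.5 ± 66.2 TPM). The next group was OMCD, with 30.7, 35.8, 29.2 and 23.1 TPM (29.7 ± 5.24 TPM), a margin of 4.43 (SE 0.27, adjusted p = 8.57e-18). Magi2 thus had a minor peak in the outer medullary collecting duct, flanked by CCD at 4.27 ± 1.01 TPM and IMCD at 0.427 ± 0.172 TPM. OMCD exceeded CCD by 2.57 (SE 0.24, adjusted p = 1.93e-11) and IMCD by 4.48 (SE 0.27, adjusted p = 4.23e-18), and the mice of these groups did not overlap. PTS1 came next, at 11.3 ± 1.95 TPM, and was higher than PTS2 (1.16 ± 0.226 TPM) by 2.52 (SE 0.26, adjusted p = 8.38e-11). MTAL, at 8.27 ± 0.797 TPM, exceeded CTAL (1.48 ± 0.43 TPM) by 1.93 (SE 0.26, adjusted p = 4.15e-07). All 4 of these differences passed the test with the same sign after median ratio rescaling and after quantile normalization. The order of OMCD over PTS1 was less firm: it was 1.31 (SE 0.27, adjusted p = 7.5e-05) as deposited, but 0.24 (adjusted p = 0.642) and 0.19 (adjusted p = 0.709) under those scalings. PTS1 and MTAL could not be told apart as deposited (difference 0.41, SE 0.29, adjusted p = 0.407). IMCD was the lowest group for Magi2. The noncoding gene Gm29254, which shares 203 exonic bases with Magi2 on the same strand, was at 0.533 ± 0.58 TPM in the glomerulus.

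Cd2ap encodes an adaptor that links the slit diaphragm to actin and to endocytosis. It was the only member whose peak lay outside the glomerulus. The glomerular mice were at 44.05, 45.15 and 51.55 TPM (46.9 ± 4.05 TPM), whereas IMCD was at 98.3, 108.6 and 101.5 TPM (102.8 ± 5.27 TPM). No glomerular mouse reached the lowest IMCD mouse, and the glomerulus was lower by 1.11 (SE 0.15, adjusted p = 1.84e-08). OMCD stood at 49.2, 58.1, 59.7 and 54.6 TPM and was not told apart from the glomerulus as deposited (glomerulus minus OMCD -0.24, SE 0.14, adjusted p = 0.148). Under median ratio rescaling and quantile normalization it was higher than the glomerulus (differences -0.37 and -0.43, adjusted p = 0.0338 and 0.0301). ATL, at 41.9 ± 6.05 TPM, was not told apart from the glomerulus either (0.16, SE 0.14, adjusted p = 0.341).

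The level of Cd2ap rose along the collecting duct in steps. CCD was at 31 ± 2.54 TPM, OMCD was higher than CCD by 0.82 (SE 0.12, adjusted p = 1.49e-06), and IMCD was higher than OMCD by 0.87 (SE 0.14, adjusted p = 1.42e-06). Both steps passed under both other scalings, and CNT, at 31.5 ± 2.05 TPM, was not told apart from CCD (0.02, SE 0.13, adjusted p = 1). The thin descending limbs lay near the same level, with DTL1 at 29.4 ± 8.16, DTL2 at 30.1 ± 4.98 and DTL3 at 34 ± 5.41 TPM. A gap followed in the order of the groups, as DTL1 exceeded DCT by 1.18 (SE 0.15, adjusted p = 3.23e-09). DCT, CTAL and MTAL were at 12.1 ± 0.217, 11.8 ± 1.17 and 11.4 ± 0.494 TPM, and the proximal tubule was lowest, with PTS1 at 6.97 ± 1.37, PTS3 at 5.59 ± 0.403 and PTS2 at 4.5 ± 0.276 TPM. The glomerulus was higher than 11 of the 14 segments for Cd2ap as deposited and than 9 under either other scaling, where CNT (differences 0.13 and 0.27) was no longer told apart from it. The other segment lost was CCD after median ratio rescaling (0.25, adjusted p = 0.0972) and DTL3 after quantile normalization (0.43, adjusted p = 0.0528). Its difference from the mean of the segments was 1.15 (SE 0.11, adjusted p = 1.2e-12), which fell to 0.61 under both other scalings and to 0.95 with a pseudocount of 5, below the minimum of 1 used for a call.

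Podxl encodes podocalyxin, the sialylated mucin that coats the podocyte's apical membrane and also the endothelium. It had the highest glomerular level of the members, at 2058, 2165 and 2948 TPM (2391 ± 486 TPM), while no tubule mouse exceeded 42.95 TPM. Its margin over DTL1 was 6.30 (SE 0.33, adjusted p = 2.25e-20). In the tubule it was highest in the short and outer medullary descending limbs, at 24.01, 42.95 and 25.68 TPM in DTL1 and 24.4, 31.6 and 28.2 TPM in DTL2. The 42.95 TPM of DTL1 mouse 3 was the mean of pieces at 61.1 and 24.8 TPM. DTL1 and DTL2 could not be told apart (0.07, SE 0.33, adjusted p = 0.876), and their order changed sign under both other scalings. DTL2 exceeded DTL3 (10.5 ± 2.04 TPM) by 1.34 (SE 0.33, adjusted p = 0.00219), without overlap of the mice. CTAL followed at 10.5 ± 2.83 TPM, OMCD at 8.89 ± 0.451 TPM, DCT at 8.51 ± 3.53 TPM and CNT at 6.92 ± 1.78 TPM, and IMCD was lowest at 0.707 ± 0.54 TPM. OMCD exceeded IMCD by 2.64 (SE 0.31, adjusted p = 1.35e-09) and CTAL exceeded MTAL (3.65 ± 2.39 TPM) by 1.45 (SE 0.29, adjusted p = 0.00055), under every scaling tried. The 10 endothelial genes summed to between 470 and 591 TPM in OMCD and between 40.4 and 342 TPM in IMCD. In CTAL their sum was 241 to 541 TPM and in MTAL 187 to 388 TPM. The part of vessel fragments in these Podxl differences was not tested.

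Ptpro encodes a receptor-type tyrosine phosphatase of the podocyte's apical surface, formerly named GLEPP1. It had the widest margin of all members. The glomerular mice were at 585.95, 671.15 and 903.35 TPM (720 ± 164 TPM), and no tubule mouse exceeded 2.6 TPM. The margin over DTL1 (2.14, 1.825 and 2.6 TPM) was 7.86 (SE 0.25, adjusted p = 1.91e-28). The 1.825 TPM of DTL1 mouse 3 was the mean of pieces at 0.5 and 3.15 TPM. Ptpro was at 1 TPM or more in 12 of the 50 tubule mice, 5 of them in DTL1 and DTL3 and 4 in CTAL, and was listed at 0 in every PTS3 piece. In CTAL the mice ranged from 0.59 to 1.715 TPM around a median of 1.07 TPM, in a segment with 1 to 4 receptor genes at 1 TPM or more. The 7 leukocyte genes had their highest group median there, 140 TPM (97.9 to 205 TPM, against 72 to 101 TPM in the glomerulus), and their part in the Ptpro level was not tested. MTAL was at 0.852 ± 0.053 TPM and was not told apart from CTAL (0.24, SE 0.22, adjusted p = 1). That SD is over mice, and the MTAL pieces of each mouse were far apart. They were at 0 and 1.59 TPM in mouse 1, 1.52 and 0.28 TPM in mouse 2, and 1.31 and 0.41 TPM in mouse 3. Of the 14 steps between neighbours in the order of the 15 group means, the step from the glomerulus down to DTL1 was the only one that passed for Ptpro.

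Synpo encodes synaptopodin, an actin-bundling protein of foot processes that is otherwise best known from dendritic spines. It was at 1554, 1543 and 2004 TPM in the glomerulus (1700 ± 263 TPM), against at most 46.55 TPM in any tubule mouse. Its margin over DTL1 was 5.23 (SE 0.32, adjusted p = 6.99e-18). DTL1, at 46.55, 45.16 and 41.94 TPM, stood above DTL2, at 12.5, 19.5 and 14.9 TPM, by 1.47 (SE 0.32, adjusted p = 0.00024) without overlap, and this held under both other scalings. DTL3 was at 11.5 ± 0.298 TPM and was not told apart from DTL2 (0.39, SE 0.32, adjusted p = 0.443). OMCD was at 5.72 ± 0.735 TPM, above IMCD at 0.579 ± 0.0967 TPM by 2.13 (SE 0.30, adjusted p = 1.15e-07). Single IMCD pieces ran from 0.02 to 1.6 TPM. The endothelial genes summed to between 470 and 591 TPM in OMCD and between 40.4 and 342 TPM in IMCD. Receptor genes at 1 TPM or more numbered 61 to 210 in OMCD pieces and 2 to 114 in IMCD pieces. The part of either in this Synpo difference was not tested. The rest of the tubule had means of at most 3.08 TPM.

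The descending limb pieces, where Synpo and Podxl were highest in the tubule, also held endothelial transcripts. The 10 endothelial genes summed to between 3209 and 4334 TPM in DTL1, 1280 and 2279 TPM in DTL2 and 739 and 1804 TPM in DTL3, and to at most 591 TPM in any other tubule mouse. All 10 genes had means above 1 TPM in DTL1, from Plvap (2301 ± 493 TPM), the diaphragm protein of fenestrated vessels, and Emcn (617 ± 48.7 TPM) down to Kdr (21.1 ± 6.82 TPM) and Cdh5 (13.2 ± 6.35 TPM). The composition differed from that of the glomerulus, where Plvap was at 271 ± 29.1 TPM and Kdr at 639 ± 105 TPM. The 9 mesangial and muscle genes summed to only 62.2 to 108 TPM in DTL1. The part of vessel fragments in the DTL levels of Podxl and Synpo was not tested. With the 3 descending limb groups left out, the next group was CTAL for Podxl (margin 7.73) and OMCD for Synpo (margin 7.99).

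Actn4 encodes the alpha-actinin that crosslinks actin filaments in podocyte foot processes and in most other epithelia. It was the most widely transcribed member, at 56.1 TPM or more in every mouse. The glomerulus was at 1118, 1280 and 1339 TPM (1246 ± 114 TPM), above every tubule mouse, of which the highest, in ATL, reached 520.5 TPM. The margin over DTL3 (427.7, 520.3 and 405.6 TPM) was 1.47 (SE 0.17, adjusted p = 3.3e-09). The margin over the highest segment still passed under median ratio rescaling, where that segment was DCT (1.13), and under quantile normalization, where it was ATL (1.69). From DTL3 (451 ± 60.8 TPM) to DTL2 (321 ± 26.7 TPM), no step between neighbours in the order passed the test. The proximal tubule was low, with PTS2 at 169 ± 12.7 and PTS1 at 162 ± 22.7 TPM, and PTS3 was lowest at 65.8, 56.1 and 58.5 TPM. PTS3 was below PTS1 by 1.40 (SE 0.17, adjusted p = 7.53e-09) and below PTS2 by 1.48 (SE 0.15, adjusted p = 3.95e-10) without overlap, and both differences passed under the other scalings. IMCD mice were spread from 161 to 327 TPM. Capn12, which overlaps Actn4 on the other strand by 316 exonic bases, was at 2.47 ± 0.843 TPM in the glomerulus.

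Wt1 was at 153.35, 177.85 and 193.15 TPM in the glomerulus (175 ± 20.1 TPM), and no tubule mouse exceeded 6.64 TPM. Its margin over DTL1 (4.11, 4.545 and 1.63 TPM) was 5.41 (SE 0.38, adjusted p = 1.06e-15). It was listed at 0 in every PTS3 piece, and PTS2, MTAL, CTAL, DCT, CNT and CCD had means of at most 0.0833 TPM. The highest tubule value was in ATL, where mice 4 and 6 were at 6.64 and 3.48 TPM and mice 2 and 3 at 0.14 and 0.15 TPM. This is the same division of ATL mice as for Nphs1 and for the receptor genes, and the part of that background in the values was not tested. OMCD mouse 1 was at 3.015 TPM, whereas the other 3 OMCD mice lay between 0.41 and 0.685 TPM. Its pieces also had more receptor genes at 1 TPM or more, 210 and 191 against 61 to 142 in the other OMCD pieces. Of the 91 segment pairs, 39 differed for Wt1.

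**Figure D3:**
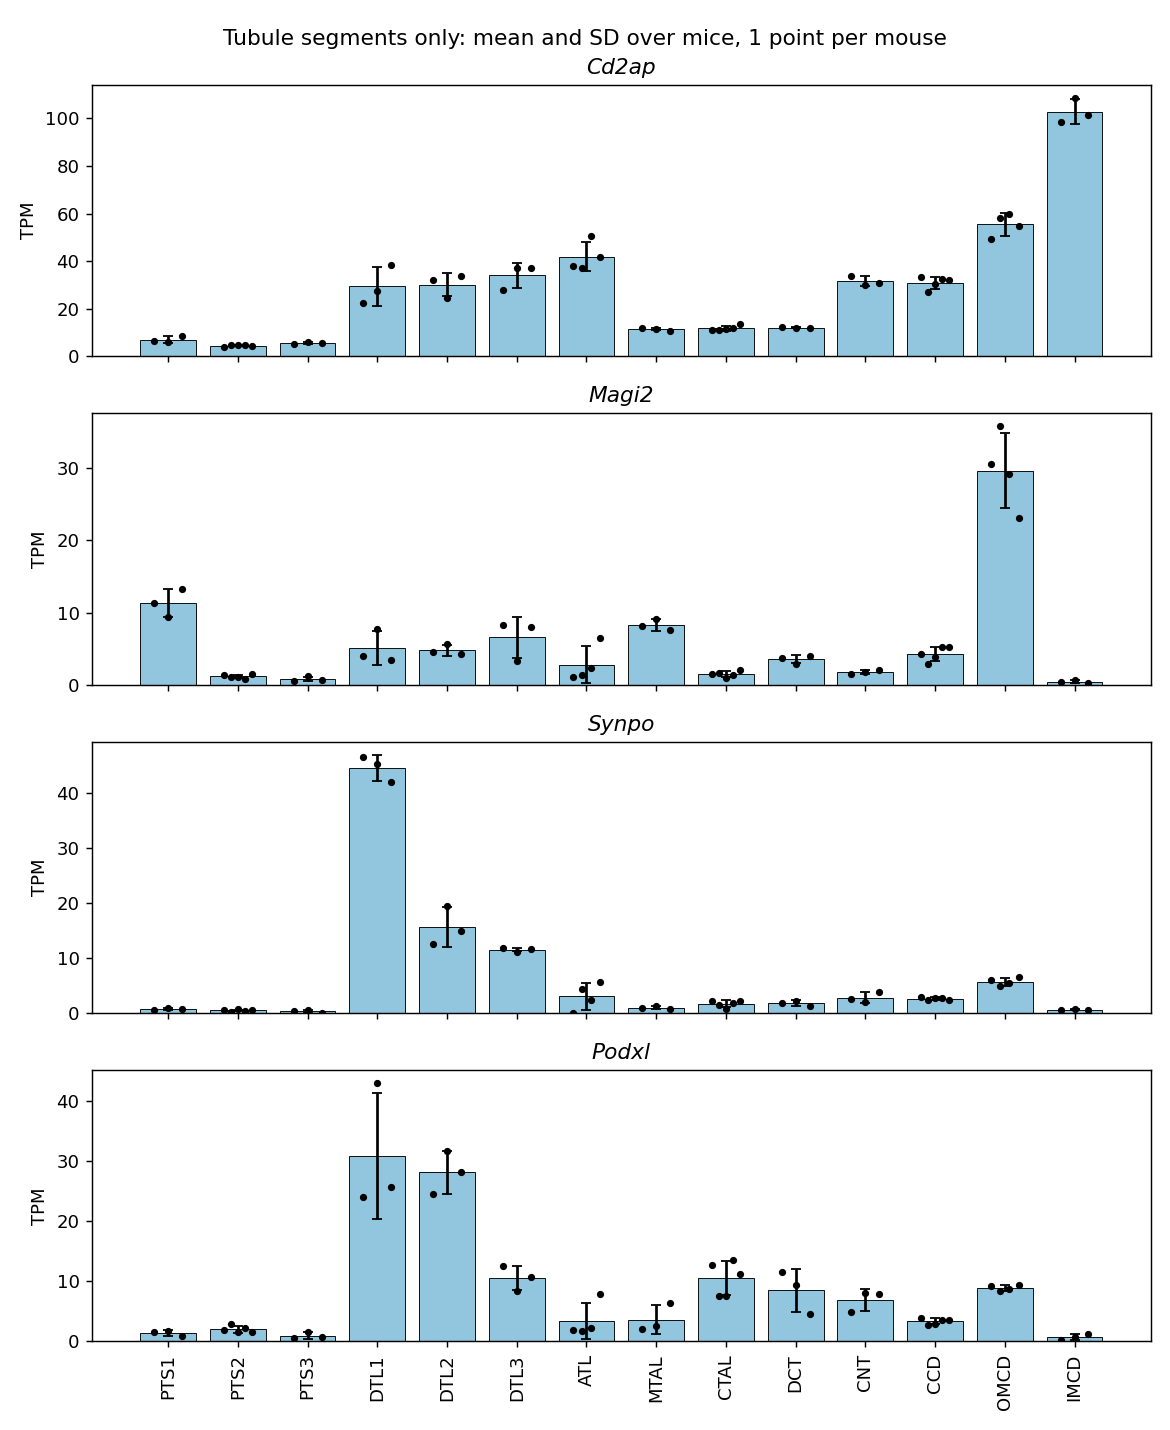
Levels of Cd2ap, Magi2, Synpo and Podxl in the 14 tubule segments alone, in TPM; bars are means over mice, error bars the SD, and points are mice. Cd2ap climbs from CCD (31 TPM) to IMCD (102.8 TPM), Magi2 peaks in OMCD (29.7 TPM), and Synpo and Podxl peak in the descending limbs.

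Among members, the number of segment pairs that differed, out of 91, ranged from 31 for Nphs1 and 34 for Ptpro to 67 for Podxl and Magi2 and 75 for Cd2ap. Synpo had 66 and Actn4 53. No such count over all genes is given here to set beside these. Nphs1, Ptpro and Wt1 lie near 0 in most of the tubule, where log2(TPM + 1) understates differences, so the counts partly follow the level. As a description over the 53 mice, which share 15 groups, Nphs1 was most like Wt1 (r = 0.967) and Ptpro (r = 0.963), and Podxl most like Synpo (r = 0.948). Cd2ap had r between 0.242 and 0.615 with the other 7 members.

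Within the glomeruli all 8 members were highest in mouse 3. The ratio of the highest to the lowest mouse was 1.17 for Cd2ap, 1.198 for Actn4, 1.22 for Magi2, 1.26 for Wt1, 1.299 for Synpo, 1.43 for Podxl, 1.54 for Ptpro and 1.56 for Nphs1. The summed members were 1.13, 1.18 and 1.40 times the summed endothelial genes in mice 1, 2 and 3, and 2.53, 2.51 and 2.60 times the mesangial and muscle genes. They were 6.10, 5.37 and 4.55 times the renin genes, lowest in mouse 3. The endothelial, the mesangial and muscle, and the renin genes also had their highest sums in mouse 3. With 3 mice no test of this order was made. Pieces of the same mouse differed by up to 0.33 on the log2 scale for Magi2 and 0.25 for Cd2ap, more than the 0.29 and 0.23 between the highest and lowest mouse, so the order of mice lay within the spread of pieces for both. The pieces of mouse 3 had 403 and 294 receptor genes at 1 TPM or more, those of mouse 1 had 643 and 817 and those of mouse 2 had 701 and 318, and the part of this background in the order was not tested.

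The paralogues show how specific the member of each family was. Of 17 paralogues, 4 were higher in the glomerulus than in every segment, a share to be read beside the 3.22% of all genes: Kirrel, Kirrel2, Cd34 and Ptprb. Their next group was a descending limb in each case. Kirrel, a nephrin-like junction protein also called NEPH1, was at 34.5 ± 5.98 TPM in the glomerulus and 5.05 TPM in DTL3 (margin 2.61, SE 0.29, adjusted p = 1.29e-09). Kirrel2, at 8.85 ± 1.62 TPM, had a margin of 2.79 (SE 0.16, adjusted p = 4.69e-19). Kirrel3 instead peaked in DTL3, at 59.2 ± 20.8 TPM against 3.33 ± 1.10 TPM in the glomerulus. The podocalyxin relative Cd34, a sialomucin of endothelium and stem cells, was at 478 ± 14.5 TPM and DTL1 at 144 TPM (margin 1.76, SE 0.43, adjusted p = 0.00283). The phosphatase Ptprb, known from endothelium, was at 179 ± 39.5 TPM and 67.1 TPM in DTL1 (margin 1.39, SE 0.33, adjusted p = 0.0021). Podxl2 was at 16 ± 3.998 TPM, not told apart from DTL1 at 13 TPM. Against the mean of the segments 9 of the 17 were higher and 0 lower as deposited, beside 31.6% and 3.94% of all genes. The counts were 8 and 0 after median ratio rescaling, beside 17.6% and 6.6% of all genes. They were 6 and 2 after quantile normalization, beside 8.49% and 9.06%, and there Magi1 (-1.41) and Actn2 (-1.14) were lower.

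In the alpha-actinin family Actn4 held 98.5 ± 0.268% of the summed TPM in the glomerulus. Its share was at least 92.5% in every segment except OMCD, where it was 81.7 ± 3.52%. There Actn3, best known from fast muscle fibres, was at 56.1 ± 20.9 TPM and made up 12.7 ± 3.77%, while it was at 0.25 ± 0.1 TPM in the glomerulus. Actn2 peaked in CNT at 11.8 TPM. Actn1 was at 17.3 ± 2.33 TPM in the glomerulus and 18.2 TPM in IMCD (margin -0.06, SE 0.31).

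Magi2 was the most abundant MAGI gene in the glomerulus, PTS1 and OMCD, Magi1 in DCT and Magi3 in the other segments. In OMCD its lead over Magi3 (32.0% of the sum) was smaller than the SD of its share. Magi2 held 96.7 ± 0.129% of the summed MAGI TPM in the glomerulus, 66.0 ± 5.66% in PTS1, 36.2 ± 5.08% in OMCD and 28.0 ± 5.06% in MTAL, and 2.10 ± 0.966% in IMCD. Magi3 made up 93.5 ± 3.56% in ATL, its highest segment at 62.8 ± 10.7 TPM, and Magi1 peaked in DTL2 at 29.0 ± 6.97 TPM. Both were below those peaks in the glomerulus, Magi3 by 1.85 (SE 0.18) and Magi1 by 2.10 (SE 0.27), with the same sign under both other scalings. For CD2AP and its close relative SH3KBP1, Cd2ap supplied 55.8 ± 0.446% of the pair in the glomerulus and between 60.0% and 93.4% in the segments. Sh3kbp1 was at 37.2 ± 3.40 TPM in the glomerulus and 26.7 TPM in IMCD (0.54, SE 0.36, adjusted p = 0.795).

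Of the remaining relatives, Synpo2 was at 5.45 ± 3.60 TPM in the glomerulus and 8.70 TPM in DTL1, and Synpo2l, a muscle protein, peaked in DTL2 at 18.6 ± 6.91 TPM against 0.433 TPM in the glomerulus. Ptprj was at 18.6 ± 3.70 TPM, below OMCD (41.3 TPM), and Ptprh at 0.65 TPM, below OMCD (6.92 TPM). The WT1 relative Egr1, an immediate early gene, ranged widely, with a glomerular mean of 65.8 ± 38.3 TPM and its peak in CCD at 589 TPM.

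**Figure D4:**
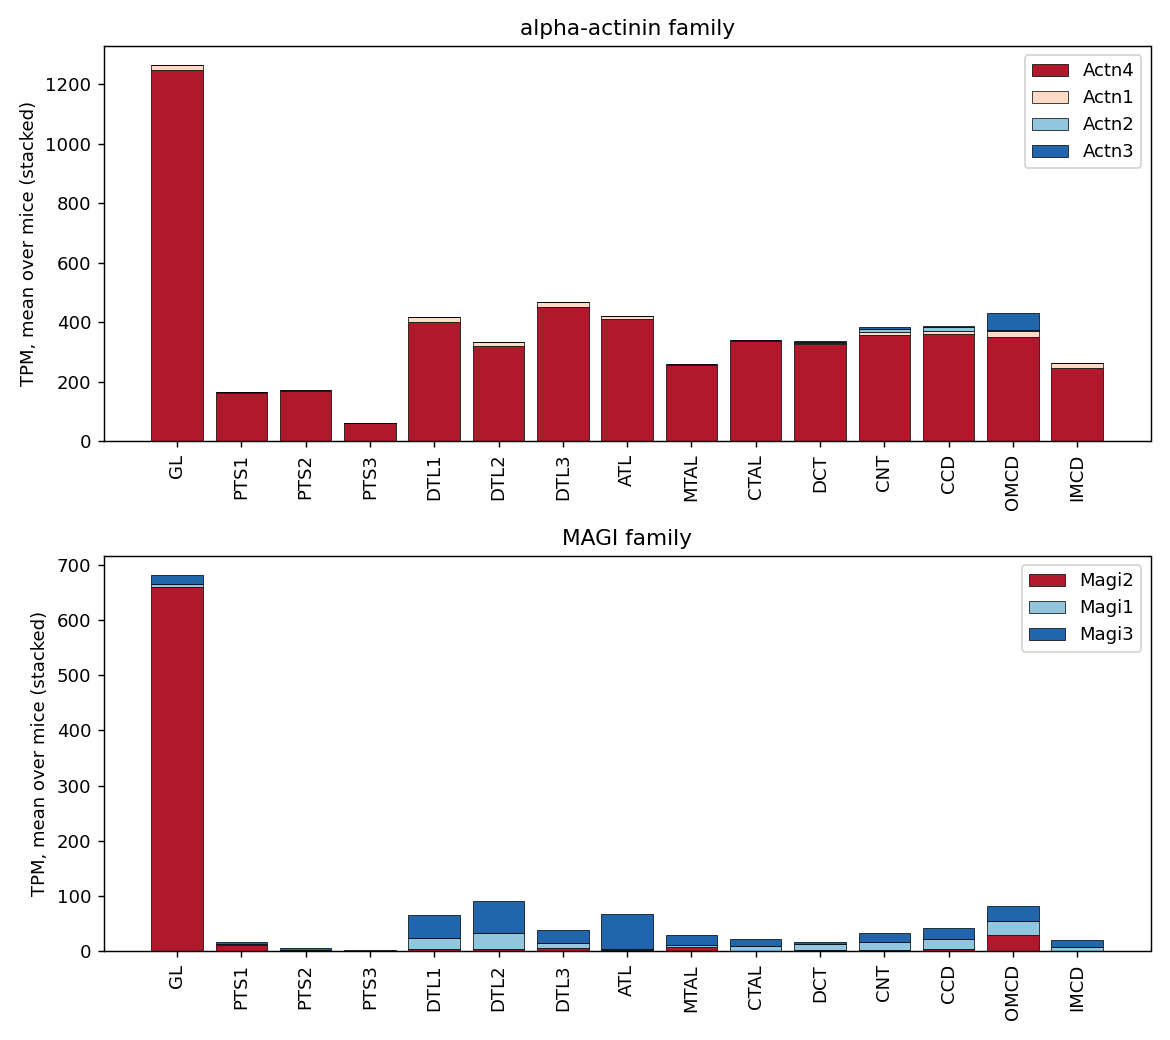
Stacked mean TPM of the alpha-actinin family (top) and the MAGI family (bottom) in the 15 groups. Actn4 dominates every group, with an Actn3 share of 12.7% in OMCD, and Magi2 makes up 96.7% of the MAGI total in the glomerulus but 36.2% or less in every segment except PTS1.

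Other genes of the podocyte were read from 4 lists. Kirrel, Kirrel2 and Kirrel3, counted above among the paralogues, are also in the list of slit diaphragm partners. Of 15 slit diaphragm partners, 14 were higher in the glomerulus than in the mean of the segments, 0 were lower and 9 were higher than in every segment. Over all genes these calls took in 31.6%, 3.94% and 3.22%, which are the shares to set beside the counts of all 4 lists. The median difference was 3.12, beside 0.69 over all genes. Robo2, a guidance receptor that binds nephrin through an adaptor, had the largest difference (6.74, SE 0.31, adjusted p = 4.83e-23; 241 ± 24.4 TPM). The polarity protein gene Crb2 (6.14, SE 0.21) and Fyn, the kinase that phosphorylates nephrin (4.76, SE 0.28), followed, and Pard3 had the smallest (-0.05, SE 0.15, adjusted p = 0.752). Its difference was -0.61 after median ratio rescaling (adjusted p = 0.000376) and -0.64 after quantile normalization (adjusted p = 0.000652), short of the minimum of 1 for a call. Under median ratio rescaling 10 of the 15 were higher, beside 17.6% of all genes, and under quantile normalization 12, beside 8.49%. The same 9 genes were above every segment under both, beside 2.5% and 2.55% of all genes.

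Of 15 foot process cytoskeleton genes, 12 were higher, 0 lower and 9 higher than in every segment, with a median difference of 3.73. Rhpn1 (7.96, SE 0.22; 989 ± 87.1 TPM), Ddn, which encodes dendrin (7.91, SE 0.20; 292 ± 31.0 TPM), and Clic5 (7.16, SE 0.21; 526 ± 60.0 TPM) led. The cortactin gene Cttn had the smallest difference (-0.29, SE 0.14, adjusted p = 0.0528), and its mean in DTL3 was 469 TPM against 132 ± 8.82 TPM in the glomerulus. Its difference was -0.86 after median ratio rescaling (adjusted p = 7.9e-08) and -0.58 after quantile normalization (adjusted p = 3.43e-05). The list's counts were 10 higher and 9 above every segment after median ratio rescaling, and 12 and 10 after quantile normalization, where Myh9 was added.

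Of 9 transcription factors, 8 were higher, 0 lower and 6 higher than in every segment, with a median difference of 4.79. Tcf21 had the largest difference (7.78, SE 0.37; 560 ± 90.8 TPM) and lay above the 175 TPM of Wt1. Foxc2 was also among the 3 largest (6.74, SE 0.17; 135 ± 5.77 TPM). Zhx2 had the smallest difference (0.92, SE 0.19) at 6.22 ± 1.94 TPM, which was 0.47 after median ratio rescaling (adjusted p = 0.0226) and turned to -0.20 after quantile normalization (adjusted p = 0.564). Under each of these scalings 7 of the 9 were higher and 5 above every segment, with Hey1 losing that call (adjusted p = 0.0647 and 1). The list of adhesion and secreted genes also holds genes of other roles, such as Cdkn1c. Of its 18 genes, 18 were higher and 11 were higher than in every segment, with a median difference of 3.59. Cdkn1c, a cell cycle inhibitor of mature podocytes (9.02, SE 0.28; 3082 ± 499 TPM), Sema3g (8.18, SE 0.19; 398 ± 49.8 TPM) and Thsd7a, a target of autoantibodies in membranous nephropathy (6.98, SE 0.23; 304 ± 45.8 TPM), led. The talin gene Tln1 had the smallest difference (1.78, SE 0.15). All 18 were also higher under both other scalings, while 9 were above every segment after median ratio rescaling, where Htra1 (0.42, adjusted p = 1) and Itga3 (0.82) lost that call, and 11 after quantile normalization. These lists were chosen for the podocyte with earlier results of these data known, so their direction is no independent evidence. Myh9, Hey1, Htra1 and Itga3 were named after their values were seen.

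**Figure D5:**
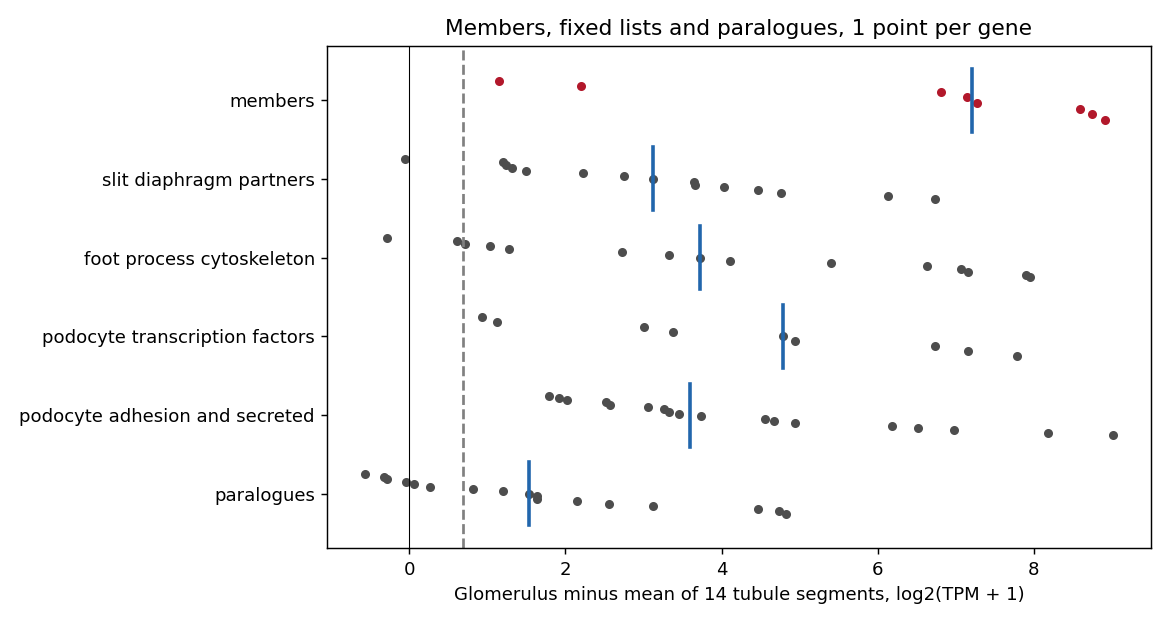
Glomerulus minus the mean of the 14 tubule segments on log2(TPM + 1) for each gene of the members (red), the 4 lists and the paralogues (grey); blue bars are medians and the dashed line is the median of all genes tested (0.69). The members' median is 7.21, the lists' medians lie between 3.12 and 4.79, and the paralogues' is 1.54.

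The genes whose profiles were most like each member were sought by Pearson's r over the 53 mice among 12067 genes with a mean of at least 10 TPM in some group. These are descriptions, since all points share the same groups and libraries. Nphs1 was closest to Sfrp2 (r = 0.992), a secreted Wnt modulator at 998 TPM in the glomerulus, and to Ddn (r = 0.989). Wt1 was closest to B3galt2 (r = 0.985) and Add2 (r = 0.984), and Ptpro to Gata5 (r = 0.980) and Gimap3 (r = 0.980). Podxl was closest to Pcdh12 (r = 0.962), an endothelial protocadherin, and Npr3 (r = 0.957), the natriuretic peptide clearance receptor. Synpo was closest to Foxd2os (r = 0.954) and Casp12 (r = 0.953). Magi2 was closest to Gpr153 (r = 0.867) and Tmc7 (r = 0.860), and Actn4 reached 0.925 with Jak1 and Calu. Cd2ap was closest to Cpne8 (r = 0.967), a copine gene at 182 TPM in IMCD against 25.9 TPM in the glomerulus, and to Mlxip (r = 0.944).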

How the data were processed

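Per the labels' protocols, RNA from microdissected pieces was extracted with Direct-zol kits, made into cDNA with the SMARTer V4 ultra-low input kit and into libraries with Nextera XT. The authors deposited TPM for 54532 genes, 2 decimals in tubule and 1 decimal in glomerulus columns. STAR 2.5.4a and RSEM 1.3.0 are named in the submitters' processing notes, which give no step order, and the genome build and annotation are not given in the sources used here. All 93 sample columns were used (column sums 999998.6 to 1000190.3), and no pair was identical. The 14 columns of the authors' means were not used. A PTS2 column whose piece letter matched no title was kept as a PTS2 mouse without number. The 3 single-cell samples were not analysed here. TPM keep no read depth, so no counting interval is given.

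For the fits, pieces of 1 mouse number and segment were averaged as log2(TPM + 1), giving 53 mice, the replicates. Levels in TPM, family shares and the filter used the arithmetic mean of the pieces' TPM. The order of the groups follows the log2 means and can differ from that of the TPM means. For Magi2, DTL2 (4.77 TPM) thus ranks above DTL1 (5.09 TPM). Genes with at least 1 TPM in at least 3 mice were kept (33793; all 8 members passed). A count model was not used on TPM. Instead limma 3.58.1 (lmFit, eBayes with trend; R 4.3.3) was fitted over all 15 groups, with p-values adjusted by Benjamini-Hochberg over all genes. Calls needed an adjusted p under 0.05 and, for the contrasts with the glomerulus counted over genes, a difference of at least 1. A log2(TPM + 1) difference understates the change of low genes. The members and lists were chosen with earlier results of these data known. Named genes were the members, their paralogues, the 3 largest and the smallest difference of each list, and the 2 most similar genes per member, of the 3 that the rule gave (not every gene under these rules is reported here). The settings varied were the pseudocount (0.1 or 5), the filter (5 TPM or none), median ratio rescaling over 11566 genes, quantile normalization, 3 treatments of pieces, mouse number as a block, leaving out each mouse, DTL1 or ATL mice 4 and 6, and, added after the endothelial values were seen, leaving out all 3 descending limb groups. The study counts 53 mice, as many as there are combinations of mouse number and segment, so same-numbered mice of different groups were taken as different animals. Figures were drawn with matplotlib 3.10.9, and tables made with pandas 2.3.3 and numpy 2.4.6 in Python 3.11.15.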

Additional observations from a re-analysis of the deposited data

Results flagged for a closer look

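In groups of 4 or 5 mice, 39 tests for a mouse standing apart from its group were run over the members on log2(TPM + 1). Of these, 2 were past Dixon's 95% critical value, about the number that chance gives at 1 in 20. That count can differ on the TPM scale, in which the values below are given. Podxl in ATL mouse 6 was at 7.96 TPM, where the other 3 ATL mice lay between 1.71 and 2.18 TPM. Ptpro in PTS2 mouse 3 was at 0.195 TPM, where the other PTS2 mice lay between 0.04 and 0.055 TPM.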

How the results depend on the processing

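Under 13 other settings and 53 fits leaving out 1 mouse each, the same 7 members stayed above every tubule segment in every fit, and Cd2ap did not. The number of genes so called ran from 815 to 1144, and was 1731 without DTL1 and 3310 without the 3 descending limb groups. Pseudocounts of 0.1 and 5 and median ratio rescaling moved the median difference of all genes from 0.69 to 1.53, 0.25 and 0.41, and quantile normalization to -0.03. The order of the top 2 tubule segments was less stable. Podxl in DTL1 minus DTL2 was 0.07, -0.090 after median ratio rescaling and -0.29 after quantile normalization. Magi2 in OMCD minus PTS1 was 1.31, then 0.24 and 0.19 under those scalings. Ptpro in DTL1 minus DTL3 was 0.56 (adjusted p = 0.0708), -0.063 after quantile normalization and 0.56 without ATL mice 4 and 6 (adjusted p = 0.0447). Nphs1 in DTL3 minus DTL1 was 0.04, -0.19 with all pieces independent and -0.11 with a random block per mouse. With 1 mouse left out, these differences ran from -0.33 to 0.28 for Nphs1, from -0.14 to 0.20 for Podxl, from 0.26 to 0.87 for Ptpro and from 1.19 to 1.42 for Magi2. Ptpro passed without DTL1 mouse 3 (0.70, adjusted p = 0.0383) or DTL3 mouse 1 (0.87, adjusted p = 0.00795). The cause of these shifts was not tested. For the pairing, mouse number as a replicate block left 7 members above every segment and changed no count of members. Mice of the same number had a median correlation of deviations of 0.000185 over 290 pairs, beside 0.000366 over 1016 other pairs. The correlation was over 0.1 in more of the same-number pairs (6.55%) than of the others (3.15%). The numbers were not taken as pairs because the study counts 53 mice, not because of these correlations. Yet 26 of 53 mice (49.1%) correlated best with a mouse of their own number, where 22.2% of the pairs shared a number, a hint of shared deviation from the data, not from the design. TPM near 0 in the tubule cannot be given a limit without depth.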
